A study of Mus musculus with 6 samples.

Results

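The 10 genes described here encode myeloid surface receptors of the immunoglobulin type: 7 members of the CD300 family (Cd300a, Cd300c, Cd300c2, Cd300lb, Cd300ld, Cd300lf and Cd300lg), the collagen receptor gene Lair1, and the paired PILR receptor genes Pilra and Pilrb1. They were picked by name from the 19937 genes measured, with earlier results of these data known, and each of the 10 had 1 probe set that names no other gene. Where a gene has several probe sets the one with the highest mean over the 6 arrays stands for it, so for these 10 no measured value entered the choice of probe set. The arrays were hybridised with RNA of B220+ SiglecH+ plasmacytoid dendritic cells (pDCs) from mouse spleen, 3 samples from IRF8-deficient (KO) and 3 from wild-type (WT) mice. IRF8 is a transcription factor of dendritic cell and monocyte development, and the series title names its control of the last steps of pDC differentiation. The allele, any Cre driver, the strain and the age of the mice are not given in the labels, and nor is the number of animals behind each sample. The p-values therefore describe variation among these 6 preparations, part of which may be technical.

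CD300, LAIR1 and PILR receptors tune the activity of innate immune cells. Inhibitory members carry tyrosine motifs in long cytoplasmic tails that recruit phosphatases such as SHP-1, while activating members have short tails and signal through adaptor proteins such as DAP12 and the Fc receptor gamma chain. Several recognise lipids exposed on dying cells, LAIR1 recognises collagen, and PILR receptors recognise CD99 and related glycoproteins. Most CD300 genes lie side by side, and close paralogs can share signal on an array because their transcripts are alike.

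All levels below are the deposited log2 values, so a difference of 1 is a 2-fold change. Array medians ran from 5.53 to 5.56. Irf8 itself measured 10.15, 10.49 and 10.79 in the KO samples, against 10.21, 9.97 and 10.24 in the WT samples, and did not pass limma (difference 0.34, SE 0.18, adjusted p = 0.426). Where the probe set lies relative to the altered part of the gene was not examined. The Irf8 signal therefore does not check the genotype, and the directions rest on the labels. The gate's own genes were high in both genotypes, with Siglech at 12.27 in KO and 12.62 in WT and Ptprc, which encodes B220, at 11.6 in KO and 11.47 in WT. Over 12 measured pDC markers the summed log2 level was 131.1 to 132.9 in KO and 133.6 to 135.6 in WT, with 2 of the 12 lower.

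In KO pDCs 3 of the 10 receptor genes were lower, Cd300c, Cd300c2 and Lair1, and 1 was higher, Cd300lb, by limma at an adjusted p of 0.05 over all genes. Across all genes 2.08% were called lower and 2.3% higher, 4.38% in either direction. The median difference was -0.45 over the 10 genes and -0.04 over all genes. Because the genes were picked with results known, nothing is read from these counts or medians against those of all genes. The largest differences were 4.84-fold lower for Cd300c and 4.35-fold lower for Cd300c2. In bulk RNA, fewer cells that express a gene and less RNA per cell cannot be told apart. Without both arrays numbered 1, an alternative chosen after the data were seen, 5 genes were lower and 0 higher, where 3.22% of all genes were lower and 3.72% higher. Cd300lb was lost (adjusted p = 0.0711), and the added genes, Pilra and Pilrb1, were called under no other setting tried. The arrays left out hold the highest KO and the lowest WT value of both, so these 2 calls follow from that choice and support nothing.

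**Figure D1:**
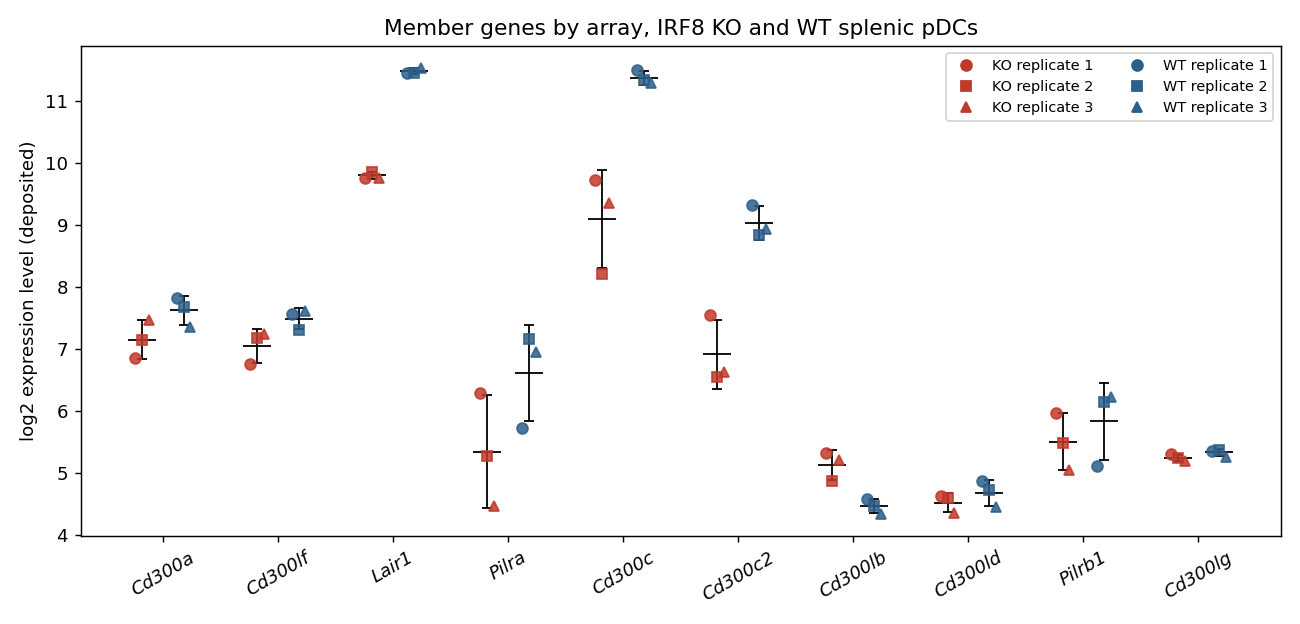
Deposited log2 level (y axis) of each member gene (x axis) in the 3 KO (red) and 3 WT (blue) arrays, with the mean and SD in black. Lair1, Cd300c and Cd300c2 lie lower in every KO array than in any WT array, Cd300lb lies higher in every KO array, and Pilra and Pilrb1 overlap between genotypes.

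Among the inhibitory receptors, Lair1 had the tightest values. It measured 9.76, 9.86 and 9.76 in the KO samples, against 11.45, 11.45 and 11.53 in the WT samples. The KO values lay within 0.10 of each other and far below the lowest WT value. The mean was 9.8 ± 0.06 in KO and 11.48 ± 0.05 in WT (SD, n = 3 each), a 3.2-fold lower level (log2 difference -1.68, SE 0.10, limma adjusted p = 0.000184). Lair1 is on chromosome 7 (chr7:4007073-4073567, GRCm38.p6), away from the CD300 cluster. Its listed promoter window, 250 bases before to 50 after the start of a listed transcript on the minus strand (chr7:4063155-4063454), is shown because Lair1 carries the lowest adjusted p of the 10. That transcript starts 10363 bases inside the gene as the coordinates above give it. No stretch is in capitals, as it holds neither motif that capitals mark in the windows further on.
Lair1: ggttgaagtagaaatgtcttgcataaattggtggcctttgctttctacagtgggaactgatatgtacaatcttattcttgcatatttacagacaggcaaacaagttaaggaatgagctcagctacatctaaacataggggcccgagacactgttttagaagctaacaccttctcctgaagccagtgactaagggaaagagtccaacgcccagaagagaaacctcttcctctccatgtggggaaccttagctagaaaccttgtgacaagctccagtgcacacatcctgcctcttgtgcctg

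Cd300a, an inhibitory receptor for phosphatidylserine and phosphatidylethanolamine, measured 6.85, 7.14 and 7.46 in the KO samples, against 7.82, 7.68 and 7.35 in the WT samples. The highest KO sample lay above the lowest WT sample. The difference was -0.47 (95% interval -0.91 to -0.02, limma adjusted p = 0.28). Cd300lf, an inhibitory receptor for ceramide that murine norovirus uses to enter cells, measured 6.75, 7.17 and 7.24 in KO and 7.56, 7.3 and 7.61 in WT. Its groups did not overlap, which held for 20.4% of all genes, and its difference was -0.44 (95% interval -0.82 to -0.06, adjusted p = 0.227). Neither gene passed the test.

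Cd300c and Cd300c2 had the largest differences of the 10 genes. Cd300c2 encodes MAIR-II, an activating receptor that signals through DAP12 and the Fc receptor gamma chain. It measured 7.54, 6.55 and 6.63 in the KO samples, against 9.33, 8.83 and 8.93 in the WT samples. KO replicate 1 was the highest of the KO samples and still lay below every WT sample (log2 difference -2.12, SE 0.27, limma adjusted p = 0.00602). Cd300c measured 9.72, 8.21 and 9.36 in KO, against 11.5, 11.34 and 11.29 in WT. KO replicate 2 lay lowest, and the KO values spanned 1.51 log2 units while the WT values spanned 0.21. The difference was -2.27 (SE 0.35, adjusted p = 0.0115), and this call was lost without WT replicate 2 (adjusted p = 0.0519) or WT replicate 3 (adjusted p = 0.0525). The RefSeq table lists 1 transcript for Cd300c and the probe set's 2 accessions do not include it, while the Entrez identifier matches.

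The level of Cd300c minus that of Cd300c2 was 2.18, 1.66 and 2.74 in the KO samples, against 2.16, 2.51 and 2.36 in the WT samples. The groups overlapped, with a KO minus WT difference of -0.15 (exact permutation p = 0.80, two-sided, adjusted p = 0.80 over 2 paralog pairs picked after their values were seen). With 3 against 3 the smallest p possible is 0.10, so this test could not have passed 0.05 and nothing is read from it. Signal shared between the paralogs was not tested.

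The promoter windows of this pair are shown because both genes fell. Capitals mark matches, searched on both strands, to the core of the interferon-stimulated response element (ISRE), which is GAAA, any 2 bases and GAAA, and to the ETS-IRF composite element, which is GGAA, any 2 bases and GAAA. IRF factors bind the ISRE, and IRF4 and IRF8 bind the composite element with an ETS partner. No composite match overlapped an ISRE match in these windows.
Cd300c: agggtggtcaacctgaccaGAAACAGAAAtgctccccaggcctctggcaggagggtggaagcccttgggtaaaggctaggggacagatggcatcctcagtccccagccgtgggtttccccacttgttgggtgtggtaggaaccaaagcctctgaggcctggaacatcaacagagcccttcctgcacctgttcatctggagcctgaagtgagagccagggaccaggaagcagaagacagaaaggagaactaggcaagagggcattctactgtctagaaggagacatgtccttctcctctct
Cd300c2: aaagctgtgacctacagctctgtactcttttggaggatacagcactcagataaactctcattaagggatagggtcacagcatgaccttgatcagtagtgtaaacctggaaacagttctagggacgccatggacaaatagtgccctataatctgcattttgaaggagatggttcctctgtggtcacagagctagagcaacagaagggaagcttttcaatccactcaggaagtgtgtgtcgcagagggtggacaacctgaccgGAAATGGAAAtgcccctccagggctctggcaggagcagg
The Cd300c window (chr11:114960458-114960757, minus strand) holds the ISRE core as GAAACAGAAA 231 bases before its transcript's start, and the Cd300c2 window (chr11:115001831-115002130, minus strand) holds it as GAAATGGAAA 11 bases after its transcript's start, which lies 2381 bases inside the gene. The matches fall in a block of 54 aligned positions, the start of the first window and the end of the second, with 87% identity. RefSeq (GRCm38.p6) lists windows for 9 of the 10 genes. In 4 of the 9 the transcript starts at the gene's 5′ end, and in 5 it starts inside the gene. Of the 9 windows 4 hold the ISRE core, against 3.44% of 32851 windows of all genes. The composite element is in 1 of the 9, against 2.72%. The ETS core AGGAAGT is in 5 of the 9, against 9.35%, and the E-box CANNTG in 6 of the 9, against 72.3%. The ISRE cores are in the windows of Cd300c, Cd300c2, Pilra and Pilrb1. The first 2 matches lie in the aligned block, and Pilra and Pilrb1 share most of a window. These counts are therefore not of 9 separate sequences, and a match is a description of the letters only.

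Cd300lb was the single receptor gene of the 10 that rose. It encodes LMIR5, an activating receptor that signals through DAP12 and binds TIM1. It measured 5.32, 4.87 and 5.21 in the KO samples, against 4.57, 4.47 and 4.34 in the WT samples. Every KO sample lay above every WT sample (1.6-fold higher, log2 difference 0.67, SE 0.15, limma adjusted p = 0.0468). The WT mean of 4.46 ± 0.11 was under 4.56, the 25th percentile over genes, and a signal this low can hide part of a change. The call was lost without KO replicate 1 or 3 or any WT replicate, with adjusted p between 0.066 and 0.169.

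Cd300ld, an activating receptor that uses the Fc receptor gamma chain, was as low and did not pass. It measured 4.62, 4.59 and 4.35 in KO, against 4.87, 4.72 and 4.45 in WT (difference -0.15, 95% interval -0.49 to 0.18, adjusted p = 0.702). Cd300lg, the endothelial receptor nepmucin, measured 5.3, 5.24 and 5.19 in KO and 5.35, 5.37 and 5.26 in WT (difference -0.08, 95% interval -0.32 to 0.15, adjusted p = 0.776). The groups overlapped for both genes.

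Neighbours in the CD300 cluster differed in direction. The cluster runs on chromosome 11 from Cd300a (chr11:114889152-114901946) to Cd300lf (chr11:115116214-115135372). Cd300lb, higher in KO, lies next to Cd300c, which was lower, and Cd300ld lies between Cd300c and Cd300c2. The Cd300lb signal was low, and its call was lost in 9 of 15 alternatives. Cd300e, which is not among the 10, measured 5.69, 5.79 and 5.59 in KO and 5.75, 5.61 and 5.83 in WT. The probe sets shared by Cd300ld3, Cd300ld4 and Cd300ld5 cannot be given to 1 gene. They measured 6.5, 7.05 and 5.88 in KO against 5.63, 5.96 and 6.31 in WT for the dimmer set, and 7.48, 7.8 and 7.01 in KO against 6.65, 6.69 and 7.07 in WT for the brighter. Both sets overlapped between genotypes (adjusted p = 0.63 and 0.356 over all 34760 probe sets).

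**Figure D2:**
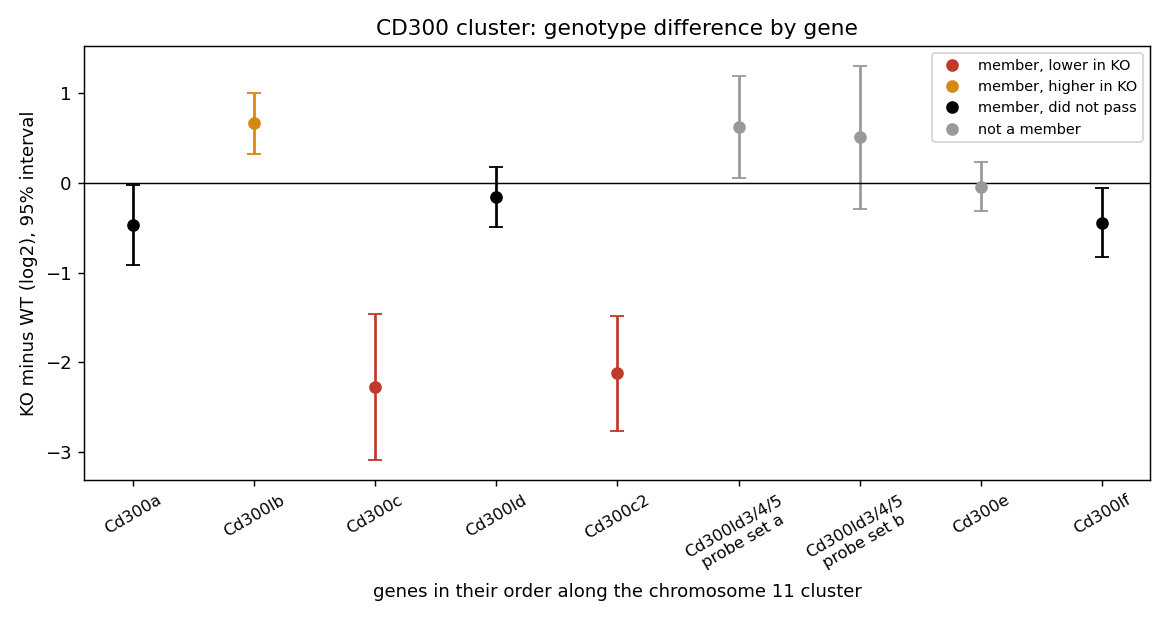
KO minus WT log2 difference with its 95% interval (y axis) for the genes of the CD300 cluster, in their order along chromosome 11 (x axis); grey points are not members. Cd300c and Cd300c2 lie at -2.27 and -2.12, while Cd300lb is at 0.67 and Cd300ld, between the 2 low genes, at -0.15.

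Of the 10 genes Pilra had the highest SD within each genotype, 0.91 in KO and 0.77 in WT. Pilra, an inhibitory receptor, measured 6.29, 5.27 and 4.47 in the KO samples, against 5.73, 7.16 and 6.95 in the WT samples. KO replicate 1 lay above WT replicate 1, so the groups overlapped (difference -1.27, 95% interval -2.46 to -0.08, limma adjusted p = 0.271). Pilrb1, its activating partner, which uses DAP12, measured 5.97, 5.48 and 5.04 in KO and 5.11, 6.14 and 6.23 in WT (difference -0.33, 95% interval -1.12 to 0.46, adjusted p = 0.735). Both genes were highest in WT replicates 2 and 3 and, among KO samples, in KO replicate 1. Without KO replicate 1 the adjusted p was 0.0537 for Pilra and 0.417 for Pilrb1, and without WT replicate 1 it was 0.146 and 0.281. Leaving out both of these arrays, a choice made after the values were seen that removes the overlap, gave differences of -2.18 for Pilra (adjusted p = 0.0048) and -0.92 for Pilrb1 (adjusted p = 0.0286), which are given as values only.

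The level of Pilra minus that of Pilrb1 was 0.31, -0.21 and -0.57 in KO, against 0.62, 1.02 and 0.71 in WT. Every KO value lay below every WT value, a difference of -0.94 (exact permutation p = 0.10, two-sided, the smallest that 3 against 3 allow, adjusted p = 0.20 over the 2 paralog pairs). Pilrb2, a further paralog outside the 10 genes, measured 4.37, 4.05 and 4.32 in KO and 4.58, 4.83 and 4.63 in WT (adjusted p = 0.143).

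The promoter windows of Pilra (chr5:137836229-137836528) and Pilrb1 (chr5:137858000-137858299), both on the minus strand, are shown because they are nearly the same. They align over 246 positions with 98.4% identity. Capitals mark the same motifs as for Cd300c.
Pilra: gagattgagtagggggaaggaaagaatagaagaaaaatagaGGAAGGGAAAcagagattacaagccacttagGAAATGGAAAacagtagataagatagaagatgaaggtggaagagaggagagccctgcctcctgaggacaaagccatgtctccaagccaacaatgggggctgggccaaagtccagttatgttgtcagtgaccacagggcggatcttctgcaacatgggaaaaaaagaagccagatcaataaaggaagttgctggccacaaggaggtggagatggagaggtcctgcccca
Pilrb1: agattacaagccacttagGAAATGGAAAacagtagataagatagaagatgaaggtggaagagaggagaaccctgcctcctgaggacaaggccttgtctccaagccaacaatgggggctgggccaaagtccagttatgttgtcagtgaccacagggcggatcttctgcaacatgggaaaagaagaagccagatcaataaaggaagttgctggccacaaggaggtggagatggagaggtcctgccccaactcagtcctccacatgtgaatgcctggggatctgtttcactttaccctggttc
The shared ISRE core, GAAATGGAAA, lies 178 bases before the start of the Pilra transcript and 232 before that of the Pilrb1 transcript, which starts 376 bases inside its gene. Pilra alone of the 9 windows holds the composite element, GGAAGGGAAA, 209 bases before its transcript's start, in a stretch outside the Pilrb1 window.

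Markers of other cells moved across the same arrays. Of 15 neutrophil markers 0 passed limma in either direction (0 at an unadjusted p of 0.05). Their summed log2 level was 122.6 in KO replicate 1, against 82.2 and 76.1 in the other KO samples and 82.8, 71.2 and 68.2 in WT replicates 1 to 3. Of 14 monocyte and macrophage markers 2 were lower, Cd68 and C1qb, and the summed level was 77.9 to 85.7 in KO and 84.4 to 91.2 in WT. C1qc, a complement gene of tissue macrophages, was picked after its values were seen. It measured 5.29, 5.74 and 4.93 in KO and 5.84, 8.93 and 8.57 in WT, high in the same WT samples as Pilra and Pilrb1. Other markers on this list were mixed. Csf1r, Adgre1, Mertk, C1qa, C1qb, Vcam1, Marco and Cd5l were also lower in WT replicate 1 than in WT replicates 2 and 3. In WT replicates 1 to 3 Vcam1 measured 5.06, 7.16 and 6.38, and Marco 5.11, 5.23 and 5.13. Among WT samples Lyz2, Cd14, Ccr2 and Cd68 were highest in replicate 1, at 5.89, 7.35, 9.83 and 11.36. Fcgr1 was lowest in WT replicate 3, at 5.14. The summed level of all 14 was 84.4, 91.2 and 88.9 in WT replicates 1 to 3. The part of these cells in the PILR values was not tested. Lair1 in KO replicate 1 was 9.76, the same as in KO replicate 3. The part of other cells in the Lair1 values was not tested either.

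**Figure D3:**
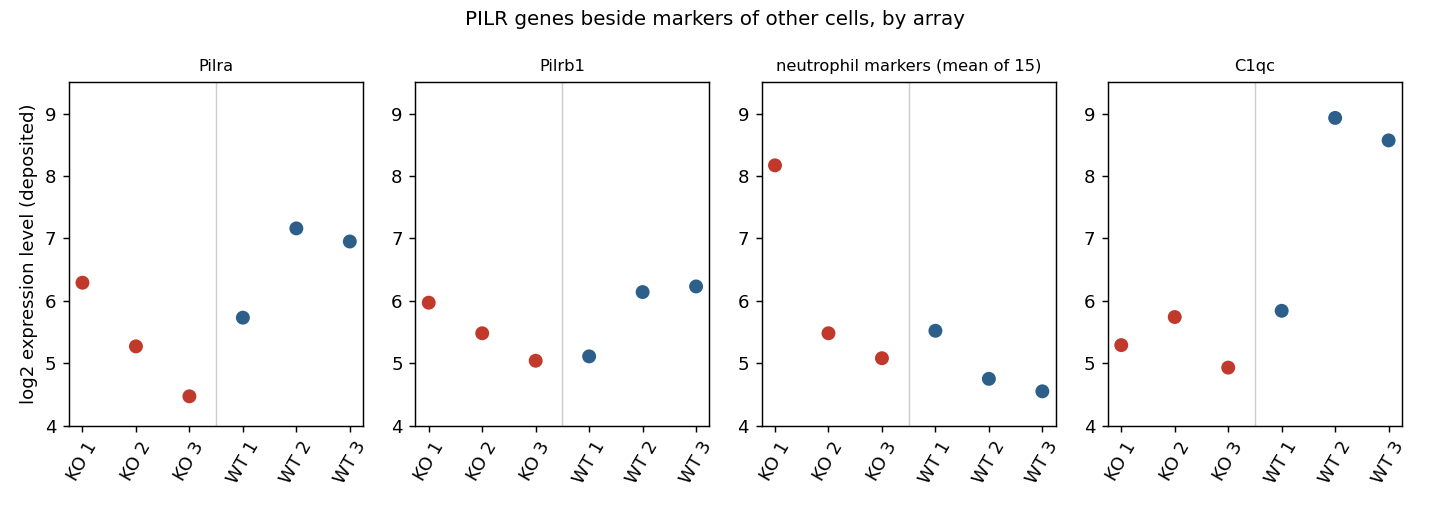
Deposited log2 level (y axis) by array (x axis, KO in red, WT in blue) of Pilra, Pilrb1, the mean of 15 neutrophil markers and C1qc. C1qc is 1 of 14 monocyte and macrophage markers, picked after its values were seen. Others on that list were mixed, some also lower in WT 1 than in WT 2 and WT 3 and some highest in WT 1. Pilra and Pilrb1 are high in WT 2 and WT 3, where C1qc is 8.93 and 8.57, and highest among KO samples in KO 1, where the neutrophil markers average 8.17.

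Of the other markers, 4 of 8 B cell genes were higher in KO, with a mean level of 6.25 to 6.45 in KO and 5.42 to 5.61 in WT. Blk is on this list and is counted again among the signalling genes. Of 10 conventional dendritic cell genes 2 were higher and 3 lower, with sums of 60.2 to 63.0 in KO and 65.4 to 66.8 in WT. Of 7 endothelial genes 1 was lower (sums of 38.9 to 40.1 in KO and 41.1 to 42.3 in WT). None of 9 NK and T cell or 7 mast cell and basophil genes passed limma (2 and 1 at an unadjusted p of 0.05), with sums of 42.9 to 48.7 and 33.6 to 34.2 in KO and of 42.3 to 45.7 and 32.0 to 32.7 in WT. Their part in the receptor differences was not tested.

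None of the 3 adaptor genes passed limma, and all 3 had negative differences (2 at an unadjusted p of 0.05). The share of all genes at that unadjusted p was not computed, so nothing is read from such counts for any list. Tyrobp, which encodes DAP12, measured 12.5, 12.46 and 12.46 in KO and 12.71, 12.69 and 12.68 in WT (difference -0.22, 95% interval -0.45 to 0.00, adjusted p = 0.313). Fcer1g, the Fc receptor gamma chain, measured 11.88, 11.53 and 11.49 in KO and 12.27, 12.29 and 12.1 in WT (difference -0.59, adjusted p = 0.0644). It was called lower with array weights (adjusted p = 0.017), without KO replicate 1 (adjusted p = 0.0162) and without both arrays numbered 1 (adjusted p = 0.0334). Hcst, which encodes DAP10 and was named after its values were seen, differed by -0.99 with overlapping groups (adjusted p = 0.16) and was called lower without WT replicate 3 (adjusted p = 0.0433).

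Genes that carry receptor signals mostly did not pass. Of 17 kinases and linkers of activating signals, 1 was higher and 0 lower (4 at an unadjusted p of 0.05, median difference 0.07). That gene was Blk, a Src family kinase best known from B cells, at 8.81, 9.03 and 8.99 in KO and 6.45, 6.56 and 6.56 in WT (adjusted p = 4.81e-05). Of 12 inhibitory effectors, 1 was higher and 0 lower (3 at an unadjusted p of 0.05, median 0.14). Ptpn22, a phosphatase that restrains Src and Syk family kinases, measured 8.19, 8.1 and 8.22 in KO and 5.59, 6.13 and 5.87 in WT (adjusted p = 0.000275). Ptpn6, which encodes SHP-1, the phosphatase recruited by LAIR1, was named after its values were seen and differed by -0.39 (adjusted p = 0.163).

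Among 17 ligand genes 0 were higher and 2 lower by limma (3 at an unadjusted p of 0.05, median -0.14). Havcr1, which encodes TIM1, the ligand of the Cd300lb product, measured 5.34, 4.5 and 4.98 in KO and 9.6, 9.53 and 9.55 in WT (adjusted p = 3.54e-05). Its KO samples were more than 4 log2 units below every WT sample, while Cd300lb was higher in the same KO samples. C1qb, a chain of complement C1q, which binds human LAIR1, was lower by the test (difference -1.47, adjusted p = 0.0385). It is also 1 of the 2 macrophage markers counted lower above, and like C1qc it was highest in WT replicates 2 and 3, at 6.99 and 6.57, against 5.66 in WT replicate 1. The part of macrophages in this value was not tested. The call was lost without KO replicate 2 or 3 or WT replicate 2 or 3 (adjusted p up to 0.137). Of 16 related receptor genes 1 was higher and 1 lower by limma (5 at an unadjusted p of 0.05). Treml2, a TREM family receptor, measured 7.05, 6.52 and 6.84 in KO and 7.89, 7.65 and 7.99 in WT (adjusted p = 0.013), lost without KO replicate 3 or WT replicate 3 (adjusted p = 0.0531 and 0.0586). Lilrb4a, an inhibitory receptor, measured 8.73, 9.59 and 9.43 in KO and 6.81, 7.67 and 7.93 in WT (adjusted p = 0.0245), lost without KO replicate 2 or 3 or WT replicate 2 (adjusted p = 0.0746 to 0.104).

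**Figure D4:**
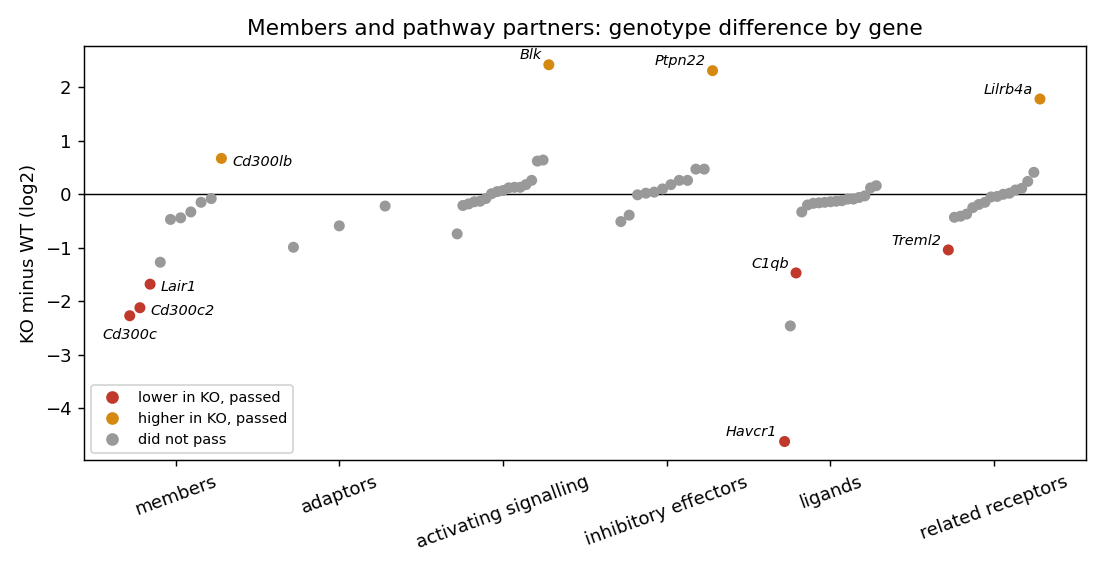
KO minus WT log2 difference (y axis) of each measured gene, by list (x axis), with genes that passed limma's adjusted p of 0.05 in colour and named. Blk, Ptpn22 and Lilrb4a lie at 2.42, 2.31 and 1.78, and Havcr1, C1qb and Treml2 at -4.62, -1.47 and -1.04. Of the genes that did not pass, C1qc lies at -2.46 and Hcst at -0.99, and most others lie nearer 0.

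The genes with profiles most like each called receptor gene were ranked over the 6 arrays by the root mean square distance of log2 levels centred on each gene's mean, among 18608 named genes. For Lair1 they were Enpp5 and Tubb3, at distances of 0.051 and 0.072, and for Cd300lb Slc14a1 and Spry2, at 0.032 and 0.072. Cd300c2 lay nearest to Mras and Gpr65, at 0.218 and 0.22. Cd300c had the most distant neighbours, Peli2 and Ly96, at 0.306 and 0.329. These distances describe 6 arrays and carry no test.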

How the data were processed

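The authors deposited log2 expression levels of 34760 Affymetrix probe sets for 3 KO and 3 WT samples. Per the labels' protocols, the NuGen PICO SL system amplified the RNA before biotin labelling. The values have the range of a log scale, and base 2, usual for these arrays, was taken, so every fold change rests on it. The authors' software and normalization were not given in the sources used here. Detection calls were not analysed, so low signal is never read as absence, and precision is limited by having 3 arrays per genotype.

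Probe sets with 1 annotated symbol (21640) were kept, updated through RefSeq of GRCm38.p6 (0 symbols changed), and the brightest stood for a gene, giving 19937 genes. Genotypes were compared with limma 3.58.1 in R 4.3.3 (lmFit and eBayes, no covariates, two-sided, Benjamini-Hochberg over all genes, threshold 0.05), as KO minus WT. The fit was tested on data simulated from this comparison's gene means and spreads (19937 genes, 200 changed, 5 runs). It recovered 10.4%, 60.8% and 90.0% of genes changed by 0.5, 1 and 2 log2 units, and 3.1% of calls were false. The simulated noise was normal, independent between genes and equal across arrays. Weights estimated for the real arrays ran from 0.495 (KO replicate 1) to 1.885 (KO replicate 2). The real comparison called 874 genes, more than the 200 changed in each run, and the adjusted p depends on how many genes change. These rates may therefore not hold for the real arrays.

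Members and lists were chosen with earlier results of these data known. Named were the 10 genes, up to 4 called genes of each list or 2 as values, and 2 nearest profiles per called member. Alternatives were quantile normalization, centring, a bright-gene filter, mean or single probe sets, a variance trend, array weights, a replicate block, an unequal-variance test per gene, and leaving out each array or, added after the data were seen, both arrays numbered 1. Promoter windows are RefSeq's. Figures were drawn with matplotlib 3.10.9.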

Additional observations from a re-analysis of the deposited data

How the results depend on the processing

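Over 16 alternatives, the 156 values of the 10 receptor genes changed direction 0 times, crossed to the uncalled side 14 times and to the called side 2 times. Lair1 was called under all 16 (difference -1.71 to -1.65) and Cd300c2 under all but the unequal-variance test (adjusted p = 0.307). Cd300c was lost also with every probe set fitted (adjusted p = 0.0597) and Cd300lb with that setting (0.135) and with array weights (0.0512). Of 19937 genes, 459 were higher and 415 lower with no alternative applied. The unequal-variance test called 2 higher and 2 lower (0.01% each) and gave 1 receptor lower and 0 higher, 0 activating and 0 inhibitory signalling genes higher, 0 ligands lower, and 0 related receptors lower and 0 higher. In the alternative added later, which leaves out each genotype's replicate 1, 741 genes were higher and 641 lower, with 5 receptors lower and 0 higher and 1 adaptor lower. Among bright genes alone (4.77% higher, 3.93% lower), which leave out Cd300lb, 0 receptors and 2 activating signalling genes were higher and 1 ligand lower. With every probe set fitted (213 higher, 1.07%, and 182 lower, 0.913%) 0 receptors were higher, 1 ligand lower, and 0 related receptors lower or higher. Array weights (716 higher, 3.59%, and 647 lower, 3.25%) gave 0 receptors higher, 1 adaptor lower and 2 activating signalling genes higher. Arrays sharing a replicate number had deviations from their group means that correlated at 0.379, 0.097 and 0.252 across genes. Arrays of different number correlated at -0.306 to 0.2. Genes are not independent replicates, so these values cannot decide whether the numbers pair the arrays. The main fit did not take the numbers as pairs. With the replicate block (707 higher, 3.55%, and 655 lower, 3.29%) 2 adaptors, Hcst (adjusted p = 0.0198) and Fcer1g (adjusted p = 0.0402), and 1 activating signalling gene were lower and 2 activating signalling genes higher, and the 4 receptor calls stood. Leaving out single arrays (249 to 780 genes higher, 1.25% to 3.91%, and 202 to 719 lower, 1.01% to 3.61%) gave 2 to 3 receptors lower and 0 to 1 higher, 0 to 1 adaptors lower, 1 to 2 activating signalling genes higher, 1 to 3 ligands lower, and 0 to 1 related receptors lower and 0 to 1 higher. The cause of these changes was not tested. Precision is limited by 3 arrays per genotype and, for Cd300lb and Cd300ld, by low signal.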
